A study of Rattus norvegicus with 86 samples.

Results

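The genes of the mu, kappa and delta opioid receptors (Oprm1, Oprk1 and Oprd1) and of cannabinoid receptor type 1 (Cnr1) were examined in the core of the nucleus accumbens, which belongs to the ventral striatum. They were chosen by Ensembl identifier: ENSRNOG00000018191 for Oprm1, ENSRNOG00000007647 for Oprk1, ENSRNOG00000010531 for Oprd1 and ENSRNOG00000008223 for Cnr1. All 4 were among the 17180 genes of the deposited table. Tissue was dissected from frozen brain sections of Heterogeneous Stock (HS) rats, which are outbred and go back to a cross of inbred strains. None of the groups carried a treatment. Of 86 labelled samples, 11 were marked as removed, and the other 75 libraries came from 38 females and 37 males, with 1 library per rat.

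The labels also gave each rat a batch number, whose meaning they did not state. Rat batch 2 held 2 females and 10 males, rat batch 3 held 13 and 7, rat batch 4 held 14 and 12, and rat batch 6 held 8 and 8. Rat batch 5 was 1 female, which was left out of every fit. Age was not given by batch. The table carried Ensembl identifiers without symbols, so the markers of the dissected region and the genes of the opioid peptides and endocannabinoid enzymes were not analysed here. Deposited values were log2(scaled count + 1), where a difference of 1 is a doubling and where transcript length had not been corrected for. The recovered total count per library ran from 8455363 to 26145824, with a median of 17907622. The lowest total belonged to rat 6 of rat batch 2, a male.

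All 4 proteins are G protein-coupled receptors that act mainly through inhibitory G proteins, lowering cyclic AMP, opening potassium channels and reducing transmitter release. Enkephalins and endorphins are the main peptide ligands of the mu and delta receptors, and dynorphins those of the kappa receptor, while cannabinoid receptor type 1 answers to lipid endocannabinoids made on demand by the postsynaptic cell. In the striatum, mu receptors are known from projection neurons, above all in the patch compartment, and delta receptors from cholinergic interneurons. Kappa receptors sit on dopamine terminals and on projection neurons, and cannabinoid receptor type 1 is abundant in projection neurons and in some interneurons. Only RNA made by cells within the dissected tissue was measured, so receptors carried on incoming axons were not. In such bulk tissue, fewer cells of a type and less RNA per cell cannot be told apart.

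Promoter sequences are shown for Oprm1 and Oprd1, the 2 receptor genes for which one was found. They show how unlike these start regions are in base composition. The RefSeq promoter table used here, on assembly GRCr8, was matched for 2 of the 4 genes, and no coordinate of the deposited files was used with it. Each run holds the 250 bases before the start site, 5′ to 3′ on the strand of the gene, with CG dinucleotides in capitals.
Oprm1, chr1:45585733-45585982, plus strand: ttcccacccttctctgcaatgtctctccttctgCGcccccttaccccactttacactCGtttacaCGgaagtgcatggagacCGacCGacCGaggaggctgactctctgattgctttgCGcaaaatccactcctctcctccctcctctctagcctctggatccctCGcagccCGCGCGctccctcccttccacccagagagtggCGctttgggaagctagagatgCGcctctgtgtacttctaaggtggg
Oprd1, chr5:149625000-149625249, minus strand: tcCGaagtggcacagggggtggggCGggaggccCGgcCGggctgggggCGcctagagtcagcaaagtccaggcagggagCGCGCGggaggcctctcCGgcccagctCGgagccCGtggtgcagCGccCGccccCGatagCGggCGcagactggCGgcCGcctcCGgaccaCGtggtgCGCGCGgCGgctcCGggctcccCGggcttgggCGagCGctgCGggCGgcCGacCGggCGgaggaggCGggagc
The Oprm1 window had a GC content of 58.4% and 13 CG dinucleotides, and the Oprd1 window had 79.6% and 34. The median of 33469 rat promoter windows of this length was 51.2% and 5, and 98.8% of them had a lower GC content than that of Oprd1. An alternative Oprm1 start, chr1:45565121-45565370 on the plus strand, had a GC content of 36.4% and 2 CG dinucleotides. On either strand, the letters GGGCGG (a GC box) occurred 4 times in the Oprd1 window and 0 times in the Oprm1 windows, and 30.5% of all windows held them. The letters CACGTG (an E box) occurred once in the Oprd1 window, and 5.59% of all windows held them. The letters TATAAA and TGACGTCA occurred in none of these windows, and 12.9% and 1.59% of all windows held them. These matches describe the sequence and are not evidence of a factor at the site.

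Oprm1, the main target of morphine-like drugs, was detected in every library at low counts. Its value had a median of 5.88 over the 75 rats, from 4.17 (8 recovered counts) in rat 6 of rat batch 2 to 7.17 (175 counts) in rat 2 of rat batch 4. The scaled counts of these 2 rats differed 8.41 times. From rat batch 2 (n = 12) through batches 3 (n = 20) and 4 (n = 26) to batch 6 (n = 16), its mean ± SD was 5.48 ± 0.66, 5.69 ± 0.52, 6.14 ± 0.54 and 5.86 ± 0.46 in that order. Rat batch 4 was highest, and every pair of rat batches overlapped.

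Oprk1, the dynorphin receptor gene, had a median of 8.90, from 7.49 (82 counts) to 9.31 (674 counts, rat 11 of rat batch 6). Over the same rat batches in that order, its mean ± SD was 8.73 ± 0.46, 8.85 ± 0.18, 9.01 ± 0.20 and 8.86 ± 0.26. The wide SD of rat batch 2 held 1 rat far below the rest, rat 6, with the lowest value of all 75.

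Oprd1, the delta receptor gene, had a median of 5.58, from 3.91 (16 counts, rat 4 of rat batch 6) to 6.70 (96 counts, rat 3 of rat batch 2). Over the same rat batches in that order, its mean ± SD was 5.90 ± 0.46, 5.70 ± 0.50, 5.50 ± 0.49 and 5.41 ± 0.60. Its mean was highest in rat batch 2 and lowest in rat batch 6, and the values of all rat batches overlapped.

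Cnr1 was detected by far more reads, with a median of 10.49, from 9.69 (881 counts, rat 1 of rat batch 6) to 11.26 (2762 counts, rat 2 of rat batch 2). Over the same rat batches in that order, its mean ± SD was 10.77 ± 0.33, 10.51 ± 0.30, 10.52 ± 0.24 and 10.27 ± 0.26. Of the 16 rats of rat batch 6, 0 lay above the rat batch 2 median of 10.79. The female of rat batch 5 had values of 6.34 for Oprm1, 8.92 for Oprk1, 5.49 for Oprd1 and 10.43 for Cnr1, each within the range of the other rats.

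**Figure D1:**
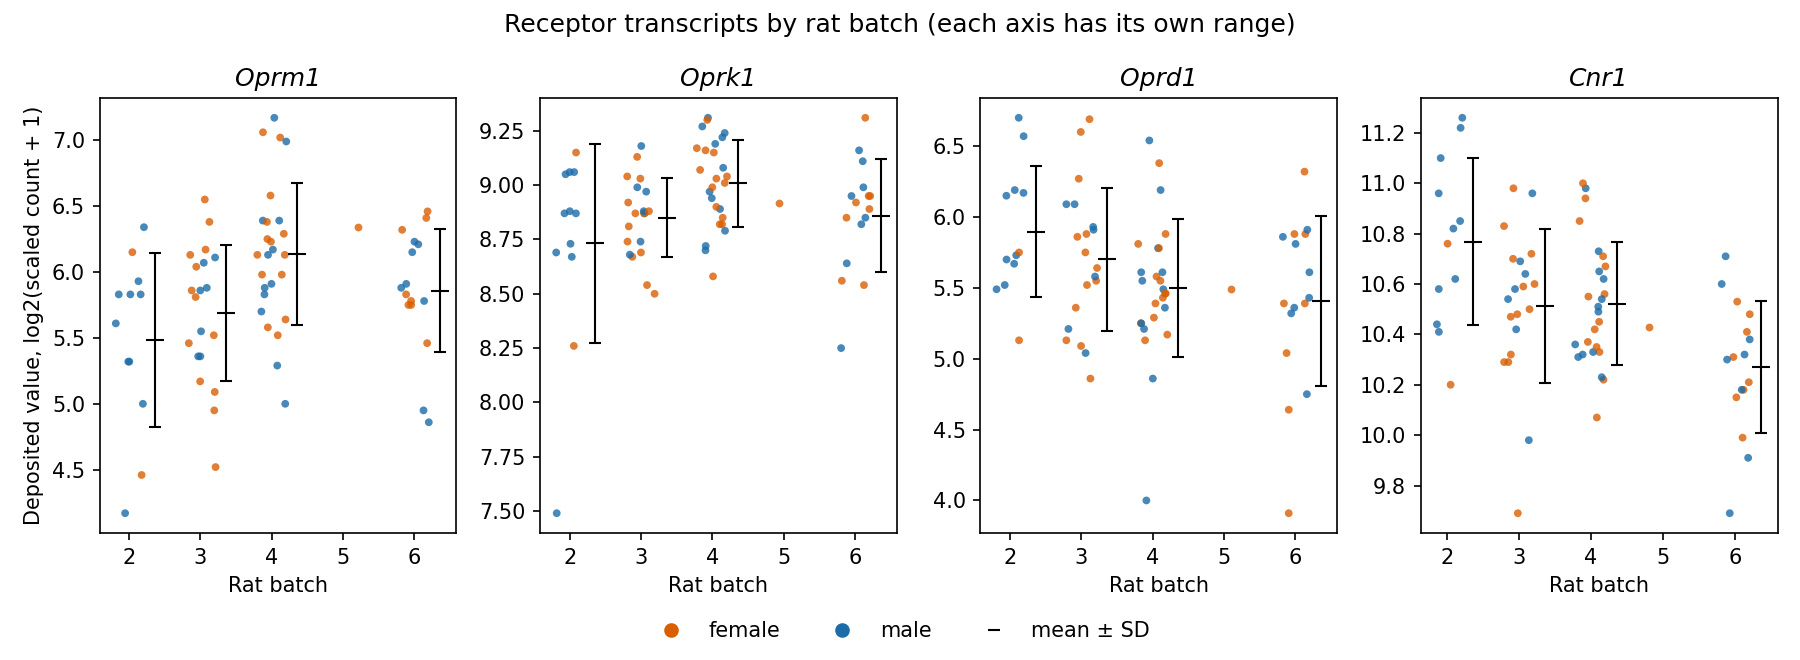
Deposited value of each receptor gene, log2(scaled count + 1), in each of 75 rats by rat batch (horizontal axis), females in orange and males in blue, with the mean ± SD of each batch beside its points. Among rat batches 2, 3, 4 and 6, rat batch 4 has the highest mean for Oprm1 (6.14), rat batch 2 has the highest for Cnr1 (10.77), and 1 male of rat batch 2 lies at 7.49 for Oprk1.

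Because longer transcripts collect more reads, no order of expression was drawn between the 4 genes. On the deposited scale alone, 30.2% of all genes had a lower mean value than Oprm1, 28.3% than Oprd1, 61.9% than Oprk1 and 84.5% than Cnr1. All 4 varied more between rats than most genes of like value. After sex and rat batch had been removed, the SD between rats was 0.54 for Oprm1, 0.52 for Oprd1, 0.27 for Oprk1 and 0.28 for Cnr1. Among genes whose mean lay within 0.5 of the receptor's own, the share with a lower SD was 80.0% for Oprm1 (of 1220 genes), 71.1% for Oprd1 (of 1181), 85.1% for Oprk1 (of 2442) and 94.6% for Cnr1 (of 1928). For Cnr1 the median SD of those genes was 0.14. Counting error alone would account for 14.4% of the variance of Oprm1, 17.9% of that of Oprd1, 6.86% of that of Oprk1 and 1.98% of that of Cnr1. These shares cover the counting of reads only. Without the 2 libraries of lowest total, the SD of Oprk1 was 0.22 and that of Oprm1 was 0.51. The part of the variance that lay between rat batches was 22.3% for Cnr1, 16.5% for Oprm1, 12.7% for Oprk1 and 9.55% for Oprd1, beside a median of 13.3% over all genes.

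The 4 rat batches were compared by limma's moderated F statistic, adjusted for sex ( 74 libraries, Benjamini-Hochberg adjustment over all genes). Cnr1 (adjusted p = 0.00100), Oprm1 (adjusted p = 0.0109) and Oprk1 (adjusted p = 0.0383) differed between rat batches, and Oprd1 did not pass (adjusted p = 0.106). These 3 of 4 genes stand beside 53.5% of all 17180 genes, so a shift between rat batches was common in the table. The call of Oprk1 was lost without any 1 of 9 libraries (adjusted p up to 0.0867), and no single library changed the call of the other 3 genes. Of the 24 differences between a pair of rat batches for a receptor gene, 5 passed in limma contrasts from the same fit, beside 25.3% of the 103080 such differences over all genes, so the receptor genes did not stand above the background.

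Oprm1 was higher in rat batch 4 than in rat batch 2, by 0.63 on the log2 scale (SE 0.19, adjusted p = 0.00980 by limma), which is 1.55 times (95% interval 1.19 to 2.01). In that pair 26.9% of all genes passed. Of the 26 rats of rat batch 4, 20 lay above the rat batch 2 median. Oprm1 was also higher in rat batch 4 than in rat batch 3, by 0.45 (SE 0.16, adjusted p = 0.0178), where 39.8% of all genes passed. The difference from rat batch 2 fell just short of the threshold when rat 11 of rat batch 2, a female at 4.46, was left out (adjusted p = 0.0525). Both differences turned direction, with wide errors, once the position of a library in the table was a covariate, as given with the column runs. In that fit these rat batches are joined through 1 library.

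Oprk1 was 0.29 higher in rat batch 4 than in rat batch 2 (SE 0.09, adjusted p = 0.0170 by limma), 1.22 times, and 19 of the 26 rats lay above the rat batch 2 median of 8.87. The call was lost without either of 2 low rats of rat batch 2, with a difference of 0.18 (adjusted p = 0.0989) without rat 6 and of 0.24 (adjusted p = 0.0705) without rat 11. Its other pairs of rat batches did not pass in this fit. With voom on recovered counts, however, the difference between rat batches 4 and 3 did (0.21, adjusted p = 0.0201). That fit called 38.6% of all genes there and scaled by the total count instead of the upper quartile. Of those calls, 4466 were higher in rat batch 4 and 2159 lower, beside 3360 and 3484 in the main fit. With the column run as a covariate, the difference of Oprk1 between rat batches 4 and 2 shrank to 0.02 (SE 0.29) and did not pass. That fit called 0 genes in this pair.

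Cnr1 was lower in rat batch 6 than in rat batch 2, by 0.49 (SE 0.11, adjusted p = 0.000235 by limma), so that the level in rat batch 2 was 1.40 times that in rat batch 6, and 34.8% of all genes passed in that pair. It was also lower in rat batch 6 than in rat batch 3, by 0.25 (SE 0.09, adjusted p = 0.0249), where 43.1% of all genes passed. That second difference did not pass without rat 1 of rat batch 6 (limma adjusted p = 0.0559). It also did not pass with voom on recovered counts (a difference of -0.17, adjusted p = 0.15), which scaled by the total count. In that pair voom called 5092 genes higher in rat batch 6 and 2215 lower, beside 3576 and 3830 in the main fit. Between rat batches 6 and 4 Cnr1 differed by -0.25 (SE 0.09), which did not pass (adjusted p = 0.0831), and 3.87% of all genes passed there. With the column run as a covariate, Cnr1 in rat batch 6 differed from rat batch 2 by -0.26 (SE 0.30) and from rat batch 3 by -0.23 (SE 0.27). Neither difference passed in that fit, which called 0 genes in each of these pairs.

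Oprd1 differed by -0.47 between rat batches 6 and 2 (95% interval -0.86 to -0.08, adjusted p = 0.0589 by limma) and by -0.37 between rat batches 4 and 2 (-0.74 to -0.01, adjusted p = 0.127), so shifts of that size were neither called nor excluded. Both turned direction with the column run as a covariate, in a fit that joins these rat batches through 1 library. Between rat batches 3 and 2, where 3.44% of all genes passed, 0 of the 4 genes did, with differences from -0.24 for Cnr1 to 0.18 for Oprm1. The adjusted p of these 4 ran from 0.176 to 0.689. The mean values of Oprm1 and Oprk1 were thus highest in rat batch 4, and those of Cnr1 and Oprd1 in rat batch 2.

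**Figure D2:**
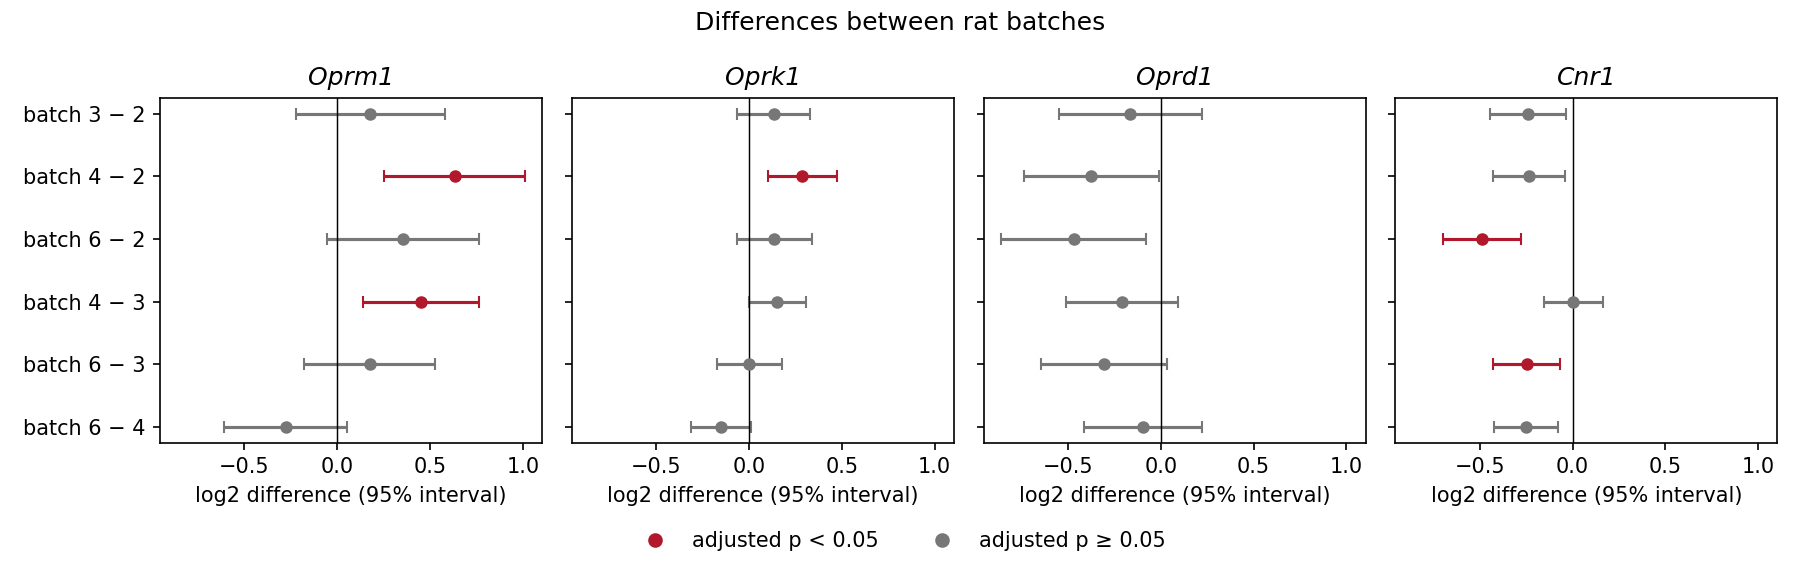
Difference between each pair of rat batches for each receptor gene on the log2 scale (horizontal axis), with its 95% interval (1.96 SE), red where the limma adjusted p is under 0.05 and grey otherwise. The 5 red points are 2 for Oprm1 (0.63 and 0.45), 1 for Oprk1 (0.29) and 2 for Cnr1 (-0.49 and -0.25), and there is none for Oprd1.

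Rat batch was entangled with where a library stood in the table. The column names ran in sorted order 3 times, and these stretches are called column runs here. Their origin was not stated. The first run held rat batch 2 (12 libraries) and 7 of rat batch 3, the second held 12 of rat batch 3, and the third held 1 of rat batch 3 and all of rat batches 4, 5 and 6. Rat batch 2 and rat batches 4 and 6 were therefore never in the same run. Once the run is a covariate, differences of rat batches 4 and 6 from batches 2 and 3 rest on 1 library, rat 5 of batch 3. Its values were 6.55 for Oprm1 (the highest of its batch), 9.13 for Oprk1, 5.13 for Oprd1 and 10.48 for Cnr1. With the column run as a covariate, 0 of the 4 genes differed between rat batches (adjusted p of 0.660 for Oprm1, 0.55 for Oprk1, 0.880 for Oprd1 and 0.316 for Cnr1), and 169 of all genes did (0.984%). In that fit the Oprm1 difference was -0.18 (SE 0.60) between rat batches 4 and 2 and -0.40 (SE 0.54) between rat batches 4 and 3, both against the direction found without the covariate. The Oprk1 difference between rat batches 4 and 2 shrank to 0.02 (SE 0.29), and the Cnr1 differences of rat batch 6 from rat batches 2 and 3 were -0.26 (SE 0.30) and -0.23 (SE 0.27). The Oprd1 differences of rat batches 6 and 4 from rat batch 2 became 0.49 (SE 0.56) and 0.59 (SE 0.55). None of these passed (limma), and limma called 0 genes in these pairs in that fit, with 350 to 1109 at an unadjusted p under 0.05. Rat batch and column run cannot be told apart for these shifts.

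Within rat batch 3, Oprd1 was at 6.11 ± 0.46 in the first run (SD, n = 7) and at 5.51 ± 0.39 in the second (SD, n = 12). The difference of -0.60 (SE 0.20) missed the threshold (adjusted p = 0.0582 by limma). Cnr1 was at 10.72 ± 0.21 and 10.39 ± 0.31 in the same libraries, a difference of -0.34 (SE 0.12, adjusted p = 0.0707). For Oprm1 and Oprk1 the difference was -0.14 (SE 0.23) and -0.08 (SE 0.08). In this comparison of libraries of a single rat batch, 11.1% of all genes passed.

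Within the first run, rat batches 3 and 2 differed by 0.31 for Oprm1, 0.17 for Oprk1, 0.33 for Oprd1 and 0.08 for Cnr1. None passed (adjusted p = 1 for each), and limma called 0% of all genes there, with 553 at an unadjusted p under 0.05. Within the third run, Cnr1 differed by -0.25 between rat batches 6 and 4 (SE 0.08, adjusted p = 0.0676), where 2.60% of all genes passed. In the same comparison Oprm1 differed by -0.27 (adjusted p = 0.357), Oprk1 by -0.15 (0.242) and Oprd1 by -0.09 (0.814), so none of the 4 passed.

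**Figure D3:**
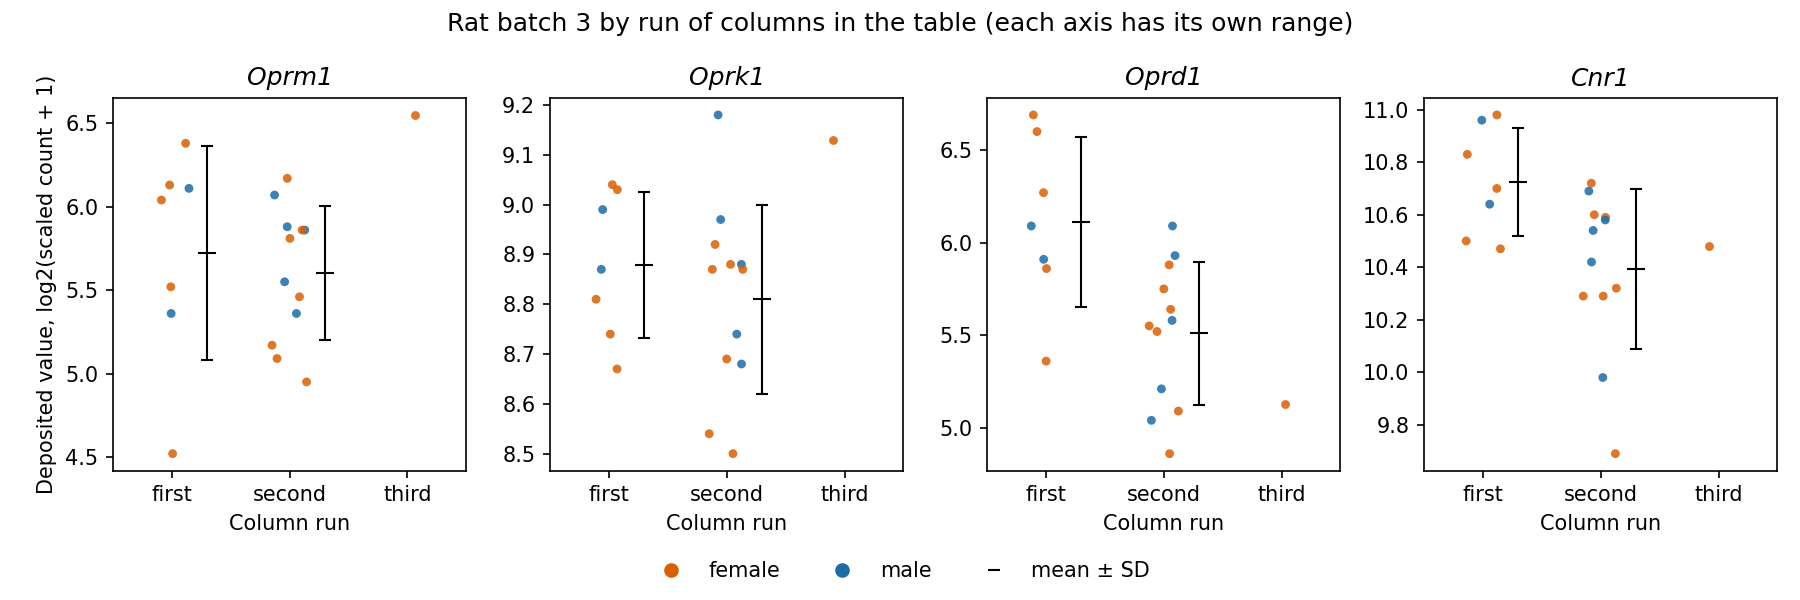
Deposited value, log2(scaled count + 1), of each receptor gene in the 20 rats of rat batch 3 by run of columns in the table (horizontal axis), females in orange and males in blue, with mean ± SD for the first (n = 7) and second (n = 12) runs. Oprd1 (6.11 and 5.51) and Cnr1 (10.72 and 10.39) had lower means in the second run, with overlapping points.

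No difference between the sexes was called in any of the 4 genes (limma, rat batch as covariate). Values are given as mean ± SD for the 38 females and then the 37 males. Oprm1 was at 5.92 ± 0.58 and 5.79 ± 0.58, and the fitted difference, male minus female, was -0.06 (95% interval -0.32 to 0.20). Oprk1 was at 8.89 ± 0.23 and 8.89 ± 0.32, with a fitted difference of 0.03 (-0.09 to 0.16). Oprd1 was at 5.54 ± 0.53 and 5.66 ± 0.53, with a fitted difference of 0.07 (-0.18 to 0.31). Cnr1 was at 10.46 ± 0.28 and 10.55 ± 0.34, with a fitted difference of 0.03 (-0.10 to 0.16). The adjusted p was 0.963 to 0.973, and 0.0873% of all genes passed. These intervals belong to this fit. With 20 expression components (the main axes of variation over all genes) as covariates the difference was -0.69 (SE 0.53) for Oprm1 and -0.59 (SE 0.61) for Oprd1, and neither passed.

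The sex difference was also not called as changing with rat batch in any of the 4 genes (moderated F test of the interaction, rat batches 3, 4 and 6, adjusted p = 0.9999 and unadjusted p from 0.677 to 0.878). That test called 0% of all genes, with 506 at an unadjusted p under 0.05 (limma), and 0 genes with voom on recovered counts, while other settings called 0 or 1.

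Across rats, Oprm1 and Oprk1 rose and fell together, and so, less closely, did Oprd1 and Cnr1. Values were centred on the mean of their rat batch, and 100000 two-sided permutations within rat batch were made for each of 6 pairs. Over 74 libraries Oprm1 and Oprk1 had a Pearson r of 0.62 and a Spearman rho of 0.55 (permutation p = 1e-05 for each, the smallest these permutations can give, and 6e-05 adjusted over the 6 pairs). Without the 2 libraries farthest from the median of Oprm1, r was 0.57. Oprd1 and Cnr1 had an r of 0.37 (adjusted permutation p = 0.00357) and a rho of 0.40 (0.00183), and r was again 0.37 without the 2 libraries farthest from the median of Oprd1. The remaining 4 pairs did not pass, with r of 0.22 for Oprm1 and Oprd1, 0.15 for Oprk1 and Oprd1, 0.14 for Oprm1 and Cnr1 and 0.09 for Oprk1 and Cnr1 (adjusted permutation p from 0.117 to 0.502, and rho from 0.08 to 0.17 with adjusted p from 0.253 to 0.501). Single libraries of rat batch 2 moved both weak pairs with Cnr1. For Oprk1 and Cnr1 r was 0.26 without rat 6 and 0.03 without rat 11, and for Oprm1 and Cnr1 it was 0.22 and 0.09. With the column run removed as well as rat batch, r of Oprd1 and Cnr1 fell to 0.32 and still passed (adjusted permutation p = 0.0215). With the first 5 expression components removed, r of Oprd1 and Cnr1 was 0.22 and no longer passed (adjusted permutation p = 0.121). In that setting r was 0.52 for Oprm1 and Oprk1 and 0.31 for Oprk1 and Cnr1, and both passed (6e-05 and 0.0305).

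Some rats at the ends of their batch were the same for Oprm1 and Oprk1, and others were not. In rat batch 2, rat 6 was lowest in both (4.17 and 7.49) and rat 11 next lowest in both (4.46 and 8.26). In rat batch 6, rat 3 was lowest in both (4.86 and 8.25) and rat 11 highest in both (6.46 and 9.31). In rat batch 4, by contrast, rat 14 was highest in Oprk1 (9.31) with an Oprm1 value of 5.70, the lowest but 5 of its 26 rats, and rat 20 was lowest in Oprk1 (8.58) with an Oprm1 value of 6.13. In rat batch 3, rat 19 was highest in Oprk1 (9.18) with an Oprm1 value of 5.55, below the mean of its batch. Cnr1 did not follow in rat 6 of rat batch 2, whose value of 11.22 was the highest but 1 of its batch. It was also low in the other 2 of these low rats. Rat 11 of rat batch 2 was lowest of its batch in Cnr1 (10.20), and rat 3 of rat batch 6 was lowest but 1 (9.91). Rat 4 of rat batch 4 was lowest in both Oprm1 (5.00) and Oprd1 (4.00), with Oprk1 at 8.72.

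**Figure D4:**
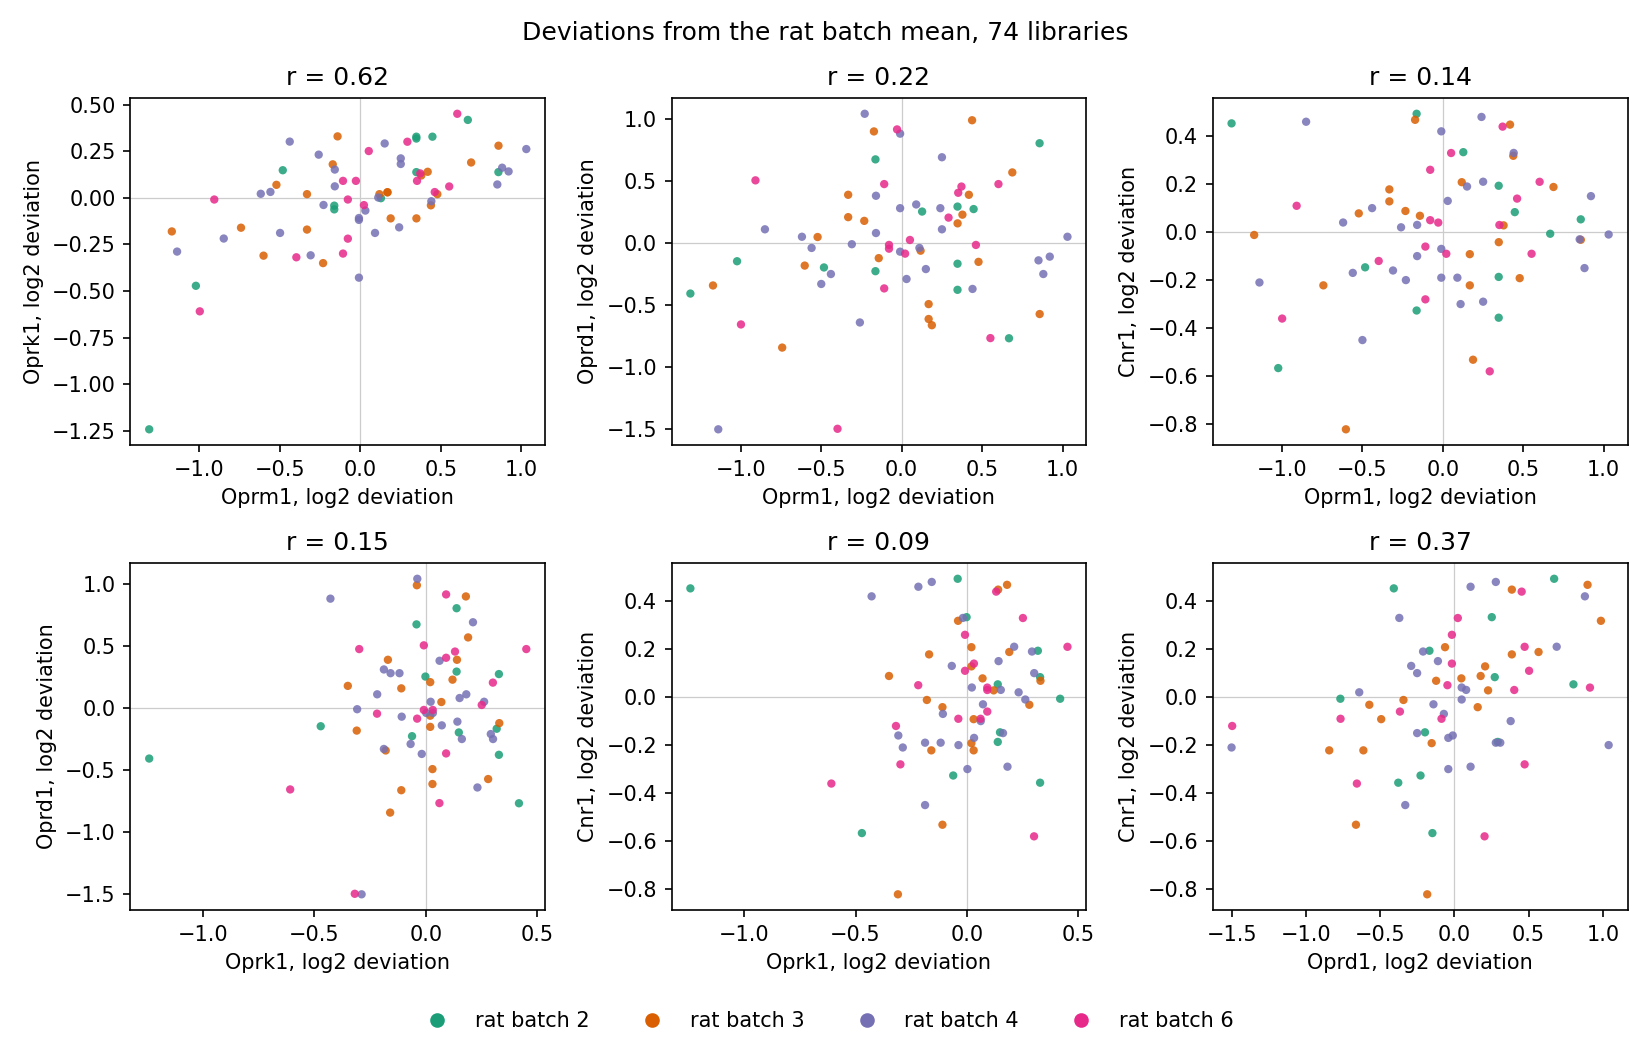
Each pair of receptor genes in 74 rats, plotted as log2 deviations from the mean of the rat batch on both axes and coloured by rat batch, with the Pearson r of the pair above. Points rise together for Oprm1 and Oprk1 (0.62) and, more loosely, for Oprd1 and Cnr1 (0.37), and the point at the far lower left of the first panel is rat 6 of rat batch 2.

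Within single rat batches, r of Oprm1 and Oprk1 was 0.86 for batch 2 (n = 12), 0.53 for batch 3 (n = 20), 0.42 for batch 4 (n = 26) and 0.70 for batch 6 (n = 16). Adjusted over the 24 tests within rat batches, the permutation p was 0.00744, 0.0998, 0.146 and 0.0218 in that order, so rat batches 2 and 6 passed. All 4 values were positive. The rank correlation (Spearman) was 0.73, 0.51, 0.40 and 0.71, of which only that of rat batch 6 passed (adjusted permutation p = 0.0299). Without the 2 libraries farthest from the median of Oprm1, r was 0.57, 0.45, 0.27 and 0.68. Without rat 6 alone, rat batch 2 had an r of 0.80 (n = 11). Within the first column run r was 0.75 (n = 19, rat batches 2 and 3, centred), and within the third it was 0.53 (n = 42, rat batches 4 and 6, centred), with permutation p-values of 0.00420 and 0.00540 after adjustment over the 30 correlations of this added set. Within rat batch 3 alone r was 0.52 in its first run (n = 7) and 0.43 in its second (n = 12), and neither passed (adjusted permutation p = 0.384 and 0.354).

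For Oprd1 and Cnr1, r was 0.31 for batch 2, 0.69 for batch 3, 0.19 for batch 4 and 0.28 for batch 6. Rat batch 3 alone passed (adjusted permutation p = 0.00768, rho 0.85 with 0.000480), and without the 2 libraries farthest from the median of Oprd1 its r was 0.60. Both genes also had lower means in the second column run of that batch. Within its first run r was 0.74 (n = 7) and within its second 0.54 (n = 12), and neither passed (adjusted permutation p = 0.348 for both). The Spearman rho of these 2 runs was 0.79 and 0.78 (permutation p = 0.0484 and 0.00424, not adjusted). Over the rats of rat batches 2 and 3 in the first column run r was 0.41 (n = 19, centred), and over rat batches 4 and 6 in the third it was 0.23 (n = 42, centred), and neither passed (adjusted permutation p = 0.354 for both). There rho was 0.44 and 0.20 (permutation p = 0.0752 and 0.207, not adjusted). Whether r differs between rat batches was not tested.

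**Figure D5:**
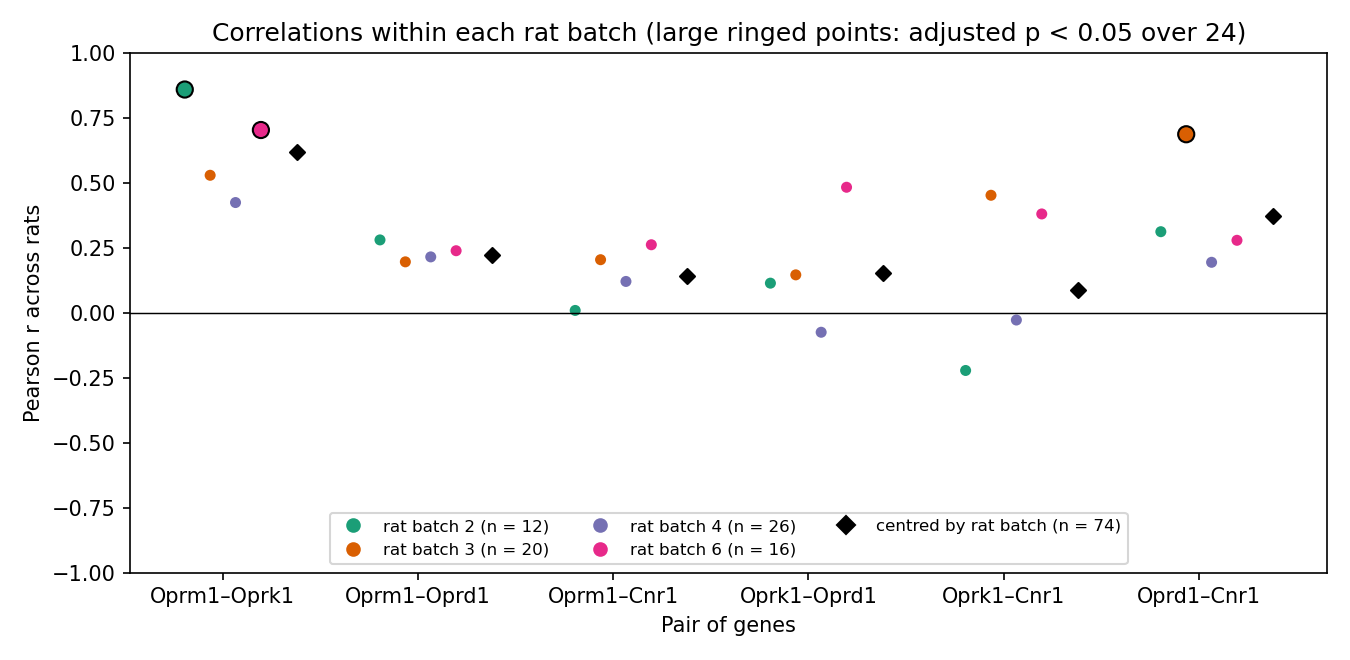
Pearson r across rats for each pair of receptor genes (horizontal axis) in each rat batch (coloured points) and on values centred by rat batch (black diamonds, n = 74). Large ringed points pass at an adjusted permutation p under 0.05 over 24 tests, and these are Oprm1 and Oprk1 in rat batches 2 (0.86) and 6 (0.70) and Oprd1 and Cnr1 in rat batch 3 (0.69).

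Many genes varied together across these rats, and the receptor pairs are placed against them here as a description. Among 12927 genes with a mean value of at least 5, 1.53% had a higher r with Oprm1 than Oprk1 had, and 2.22% had a higher r with Oprk1 than Oprm1 had. For the other pair, 2.75% had a higher r with Oprd1 than Cnr1 had, and 5.59% had a higher r with Cnr1 than Oprd1 had. The 5 genes most like Oprk1 had an r from 0.77 to 0.85 (ENSRNOG00000005905 the highest), and the 5 most like Cnr1 from 0.75 to 0.82 (ENSRNOG00000003512 the highest). For Oprm1 the 5 highest ran from 0.72 to 0.75, and for Oprd1 from 0.59 to 0.60. No gene was among the 5 of more than 1 receptor, and the receptors were not among each other's 5.

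Some of these deviations moved with the expression components, whose sign is arbitrary. On values centred by rat batch (74 libraries, 28 correlations adjusted together), the log2 total count had an r of 0.08 with Oprm1, 0.15 with Oprk1, -0.02 with Oprd1 and 0.07 with Cnr1, none of which passed (adjusted permutation p from 0.421 to 0.915). Component 1 had an r of 0.54 with Oprk1 (adjusted permutation p = 0.000140) and of 0.36 with Oprm1 (0.0192). Without the 2 farthest libraries these were 0.40 and 0.21, and the Spearman rho was 0.42 for Oprk1 (0.00378) and 0.24 for Oprm1, which did not pass (0.200). Component 2 had an r of 0.41 with Oprd1 (0.00644), where rho did not pass (0.149). Component 3 had an r of -0.68 with Cnr1 (0.000140) and of -0.32 with Oprd1 (0.0220). Component 5 had an r of -0.33 with Oprd1 (0.0286) and of -0.30 with Oprm1 (0.0400), and without the 2 farthest libraries these were -0.47 and -0.10. The Spearman rho was -0.35 for Oprd1 (0.0148) and -0.20 for Oprm1, which did not pass (0.227). With Oprk1 component 5 had an r of -0.37, which did not pass (0.0546). With the first 5 components removed, r was 0.52 for Oprm1 and Oprk1 (adjusted permutation p = 6e-05) and 0.22 for Oprd1 and Cnr1 (0.121), so the first pair still passed and the second did not. What these components stand for was not tested.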

How the data were processed

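RNA-Seq libraries came from 75 HS rats. According to their methods, the authors trimmed single-end reads, estimated counts per Ensembl gene with RSEM, scaled them by the upper quartile and dropped genes with few reads. The processing notes name cutadapt and the build Rnor_6.0. The deposited values are on a log2 scale, log2(scaled count + 1), and the scaled counts are whole numbers. Strandedness of counting is not given in the sources used here. Counts per library were recovered by a search for the scaling factor (0.708 to 2.183 found, between 0.55 and 2.5), which gave back at least 99.97% of scaled counts up to 2000, and were used for depth, for counting error and in voom. Counting error was taken as Poisson on these counts. Voom took the recovered totals as library sizes, without further scaling factors.

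Genes were tested with limma 3.58.1 in R 4.3.3 (lmFit, eBayes with trend) on all 17180 genes, with Benjamini-Hochberg adjustment and a threshold of 0.05. Libraries were grouped by the rat batch and sex of the labels. Correlations were tested by 100000 permutations within rat batch, the observed order included, in numpy 2.4.6 (Python 3.11.15, pandas 2.3.3, scipy 1.17.1, matplotlib 3.10.9). The scripts were tested on simulated data. The 4 genes, the gene lists and the tests were chosen with earlier results of these data known. The named genes were the 4 receptors and, for each, the 5 genes of highest centred r. The listed pathway and cell type markers were not used, since symbols could not be paired with identifiers. Alternatives were pseudocounts of 8 and 0.1, a filter on a mean log2 value of at least 3, quantile normalization, a rank-based inverse normal transformation, voom, eBayes without trend or robust, other covariates, 20 expression components and left-out libraries. Fits within column runs, sex within rat batches, single left-out libraries and correlations within column runs were added after seeing the data.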

Additional observations from a re-analysis of the deposited data

Results flagged for a closer look

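Oprk1 in rat 6 of rat batch 2 lay far from the other males of its batch. Its value of 7.49 (82 counts) stood apart from the other 9 males, which lay between 8.67 and 9.06, and the gap took 0.753 of the range of the 10 males, above the 95% limit of 0.466 for a group of that size. This library also had the lowest total count of all 75 (8455363) and the lowest Oprm1 value (4.17, 8 counts), while its Cnr1 value was 11.22. Of 16 combinations of gene and group checked (4 groups of 4 to 10 libraries), 1 stood out, and chance gives about 1 in 20. Whether the low total had a part in the value was not tested, and the library was kept in every fit unless said otherwise.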

How the results depend on the processing

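The call of a rat batch difference depended on covariates and on which rat batches were included. The expression components were computed from the same values without removing rat batch, so they can hold the rat batch differences themselves. A call lost with them as covariates therefore cannot tell whether rat batches differ. With the column run as a covariate, 0 of 4 genes differed between rat batches (adjusted p of 0.660 for Oprm1, 0.55 for Oprk1 and 0.316 for Cnr1), and with 20 expression components as covariates again 0 (0.980, 0.745 and 0.546), in a fit that called 10 of all genes. Without rat batch 4, 1 gene differed, since Oprm1 (0.313) and Oprk1 (0.523) no longer passed in a fit that called 46.7% of all genes, and without rat batch 6 Cnr1 did not (0.113), where 43.7% were called. Oprk1 was also lost with quantile normalization (0.0504), with the log2 total as a covariate (0.101), without the 2 libraries of lowest total (0.0698) and without rat batch 3 (0.0676). The cause was not tested. Oprd1 passed in none of the F tests run. Leaving out each of 74 libraries in turn gave an adjusted p from 0.0151 to 0.0867 for Oprk1, which was lost without any of 9 libraries (rats 6 and 11 of rat batch 2, and rats 2, 8, 10, 14, 17, 19 and 24 of rat batch 4, each above 0.05). No such omission changed the F test call of Oprm1 (0.00385 to 0.0244), Cnr1 (0.000220 to 0.00361) or Oprd1 (0.0591 to 0.178).

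Of the 24 differences between pairs of rat batches, 12 turned direction with the column run as a covariate, and none of the 24 passed there, where 5 of the 6 pairs called 0 genes and the pair 6 minus 4 called 765. These were 4 of 6 for Oprm1 (-0.68 to -0.18, with -0.18 for batch 4 minus 2 and -0.40 for batch 4 minus 3), 3 of 6 for Oprk1 (-0.30 to -0.13), 5 of 6 for Oprd1 (0.24 to 0.59, with 0.59 for batch 4 minus 2 and 0.49 for batch 6 minus 2) and 0 of 6 for Cnr1. The other called differences were smaller there. They were 0.02 for Oprk1 in batch 4 minus 2, and -0.26 and -0.23 for Cnr1 in batch 6 minus 2 and 6 minus 3. In that fit, differences of rat batches 4 and 6 from batches 2 and 3 rested on 1 library, rat 5 of batch 3. With 20 components 12 also turned, and none of the 24 passed in contrasts that called 0 to 18 of all genes. These were 2 of 6 for Oprm1 (-0.09 and, for batch 4 minus 3, -0.0112), 5 of 6 for Oprk1 (-0.28 to -0.03, with -0.17 for batch 4 minus 2), 3 of 6 for Oprd1 (0.0383 for batch 6 minus 2, up to 0.15) and 2 of 6 for Cnr1 (-0.09 and 0.08). The difference of Oprd1 between rat batches 6 and 2 passed without any of 8 single libraries, and that of Cnr1 between rat batches 4 and 2 without any of 7.

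The sex difference, never called, turned direction for Oprm1 within rat batch 3 (0.0748), for Oprk1 without the batch covariate (-0.00413) and within rat batch 6 (-0.0208), for Oprd1 with 20 components (-0.59) and within rat batches 3 (-0.0149) and 4 (-0.0848), and for Cnr1 without rat batch 2 (-0.00428) and within rat batches 4 (-0.0298) and 6 (-0.0234). With 5 expression components removed, r of Oprk1 and Cnr1 was 0.31 and passed, and r of Oprd1 and Cnr1 was 0.22 and did not. The other 58 correlations under alternative settings kept their side of the threshold, and as single libraries were left out r ran from 0.57 to 0.64 for Oprm1 and Oprk1, 0.35 to 0.41 for Oprd1 and Cnr1, 0.15 to 0.26 for Oprm1 and Oprd1, 0.11 to 0.20 for Oprk1 and Oprd1, 0.09 to 0.22 for Oprm1 and Cnr1 and 0.03 to 0.26 for Oprk1 and Cnr1. Low counts limit Oprm1 and Oprd1 most. No paired analysis was made, because each rat had 1 library among the deposited values used here.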
